A study of Rattus norvegicus with 26 samples.

Results

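The transcripts described here are those of 8 rat genes of MHC class II antigen presentation, Cd74, RT1-Da, RT1-Db1, RT1-Ba, RT1-Bb, RT1-DMa, RT1-DMb and Ciita. They were taken by gene name from a count table of 32883 genes. All 8 passed the filter on low counts that left 17990 genes for testing. RNA sequencing had been carried out on 26 spinal cord libraries in 8 groups, to ask how compression injury and transplanted hUC-MSCs, mesenchymal stem cells from human umbilical cord, alter gene expression at the lesion. The rats were wild type, female and of the outbred Sprague-Dawley strain, and every library carries the age label of postnatal day 70, the later time points included. Intact (4 libraries) were intact or sham rats. In all other groups the cord had been compressed at T10 for 1 min with a 60 g aneurysm clip. The sub-SCI group (3 libraries) was taken at 0 weeks post-transplantation (wpt), which is day 7 after injury. At that day the other rats received vehicle (+PBS, with 3, 2 and 4 libraries at 1, 2 and 4 wpt) or hUC-MSCs (+MSC, with 3, 3 and 4 libraries) intrathecally. Per the study's methods, rats were given daily cyclosporin A, an inhibitor of T cell activation, to suppress rejection. The methods do not name the groups that received it. Whether the Intact rats, or the sub-SCI rats taken on the day of injection, received it is not stated. Each library came from 5 mm of cord around the lesion, a mixture of resident and infiltrating cells.

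MHC class II molecules are pairs of an alpha and a beta chain that display peptides from ingested proteins to CD4 T cells. In rats the classical pairs are RT1-D (alpha chain RT1-Da, ENSRNOG00000032844; beta chain RT1-Db1, ENSRNOG00000033215) and RT1-B (RT1-Ba, ENSRNOG00000000451; RT1-Bb, ENSRNOG00000032708). Cd74 (ENSRNOG00000018735), the invariant chain, fills the peptide groove until the complex reaches the endosome, and the RT1-DM pair (RT1-DMa, ENSRNOG00000047854; RT1-DMb, ENSRNOG00000051002) then removes the last piece of it so that peptide can bind. Ciita (ENSRNOG00000002659) is the coactivator on which transcription of the pathway depends. It is held at the promoters by proteins bound to short elements called the X and Y boxes. In the central nervous system, microglia, infiltrating macrophages, dendritic cells and B cells are the usual sources of these transcripts.

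The RefSeq promoter table (build GRCr8, 250 bases before to 50 after each start) held 6 of the 8 genes. The stretches with both elements are shown for the chain genes and RT1-DMa, because they show what the promoters of these genes share. Capitals mark X box letters (GNNACNG) and then Y box letters (TGATTGG), read 5′ to 3′ along each gene's strand.

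RT1-Da: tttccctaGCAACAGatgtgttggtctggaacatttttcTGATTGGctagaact
RT1-Db1: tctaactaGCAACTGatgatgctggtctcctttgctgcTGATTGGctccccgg
RT1-Ba: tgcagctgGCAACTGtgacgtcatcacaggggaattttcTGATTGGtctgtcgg
RT1-Bb: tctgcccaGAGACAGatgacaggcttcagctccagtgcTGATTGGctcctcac
RT1-DMa: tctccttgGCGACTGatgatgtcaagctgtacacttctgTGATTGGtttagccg

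The stretches are at chr20:4515325-4515378 (RT1-Da, plus strand), chr20:4560230-4560282 (RT1-Db1, minus), chr20:4576973-4577026 (RT1-Ba, plus), chr20:4604167-4604219 (RT1-Bb, minus) and chr20:4712387-4712440 (RT1-DMa, minus). Between the X and Y letters lie 24 bases in RT1-Da, RT1-Ba and RT1-DMa and 23 in RT1-Db1 and RT1-Bb. The pair 15 to 30 bases apart was in 5 of the 6 promoters, the exception being Cd74. It was in 153 of 33469 promoters of the table (0.457%) when both strands were searched. Singly, GNNACNG was in 88.1% of promoters, TGATTGG in 7.06% and ATTGG, which lies within it, in 37.5%. The letters were chosen after these sequences had been seen, and a match is a description of the letters only. Of 4 other class II genes in the table, RT1-DOb, RT1-Db2 and RT1-Ha held the pair and RT1-DOa did not.

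Total counts ranged from 19496602 to 43468509 per library, and levels are given as CPM, the reads of a gene scaled to a common library size. The libraries labelled replicate 1 stood apart from the others. In all 8 groups, 337 of the 17990 genes (1.87%) were highest in replicate 1 and 81 (0.45%) were lowest there. RT1-DMa and RT1-DMb were among the former, so the main results are also given below without the replicate 1 libraries. Rat class II genes are polymorphic and have close paralogs, and how the counting treated strand, and on which annotation release, is not given in the sources used here. Reads lost to or gained from other alleles and copies cannot be seen in the counts, which leaves the level of each RT1 gene uncertain.

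Per kilobase of gene model, Cd74 had the highest mean level over the 26 libraries, 150 CPM per kb. RT1-Da followed at 20.5, then RT1-Ba at 6.78, RT1-Db1 at 4.8 and RT1-Bb at 3.16 CPM per kb. The DM chains and the coactivator were near or below 1, with RT1-DMa at 0.995, RT1-DMb at 0.911 and Ciita at 0.558 CPM per kb. Below 1 CPM were 13 libraries for RT1-DMa, 11 for RT1-DMb, 3 each for RT1-Ba and Ciita, and 1 for RT1-Bb, and values there rest on few reads. In Intact the lowest library counts were 457 reads for Cd74 and 1 read each for RT1-Bb, RT1-DMa and RT1-DMb.

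**Figure D1:**
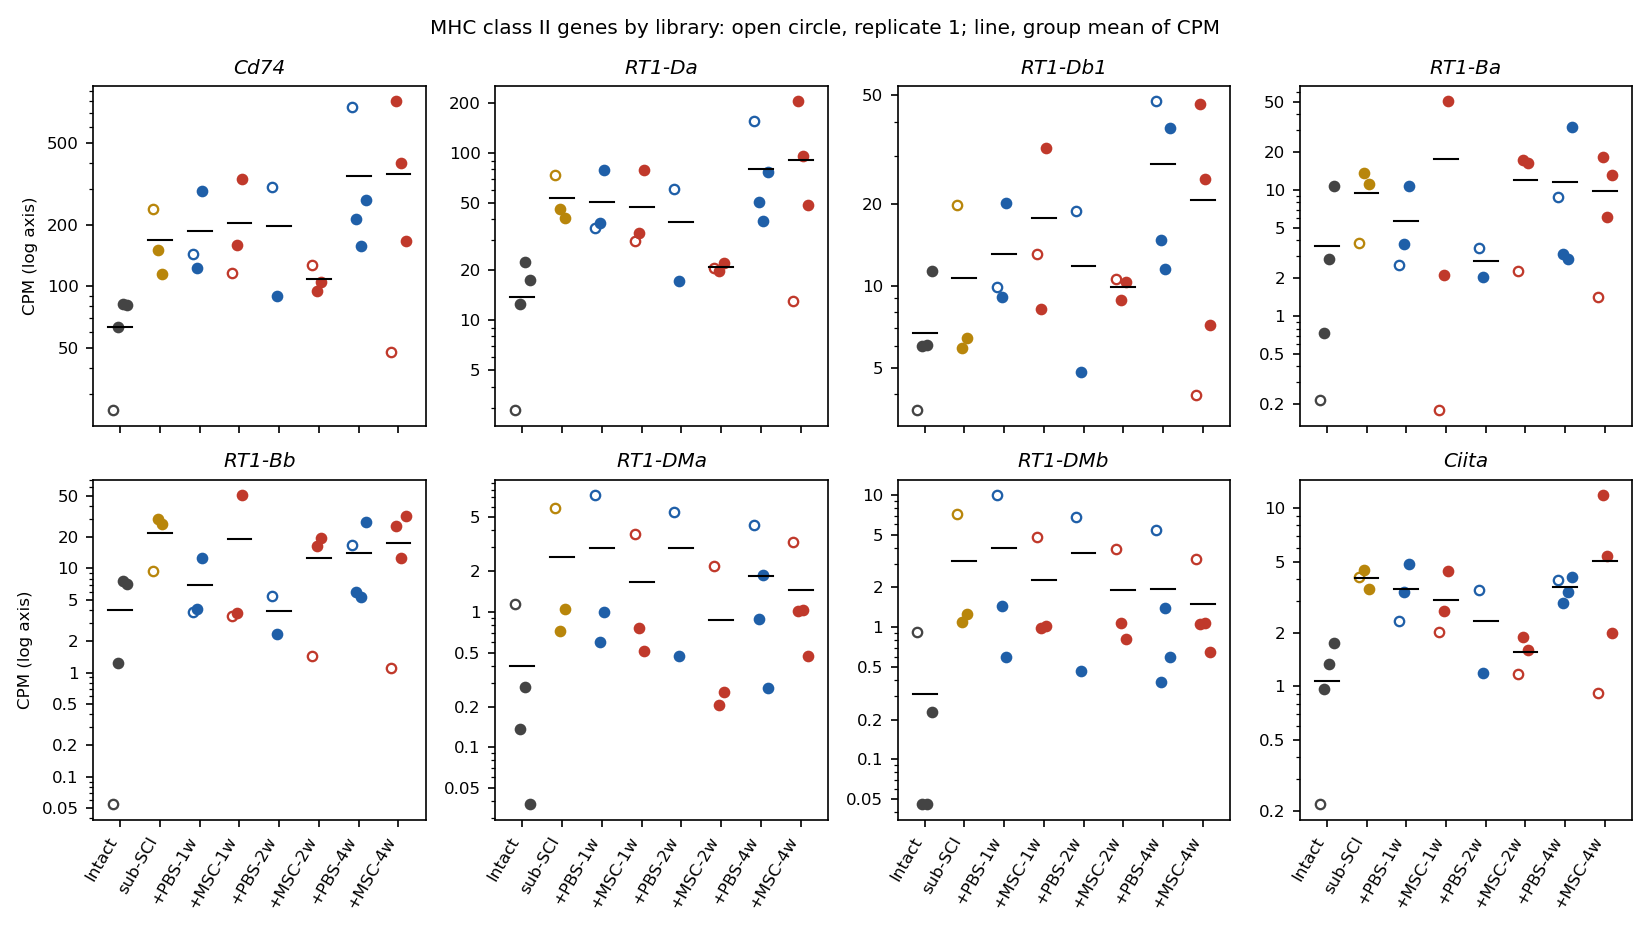
Each panel plots the CPM of 1 gene on a log axis for every library of the 8 groups, with replicate 1 as an open circle and the group mean of CPM as a line. The open circles of RT1-DMa and RT1-DMb are the highest of their group in all 8 groups, and Cd74 spans 47.7 to 798 CPM within +MSC-4w.

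Cd74 and RT1-Da were higher than in Intact in both groups at 4 wpt by the test given below, while the earlier groups did not pass it. Cd74 was at 24.9, 63.6, 82.3 and 81.6 CPM in the Intact libraries (replicates 1 to 4), and at 238, 150 and 115 CPM in sub-SCI. With vehicle it was at 144, 123 and 291 CPM in +PBS-1w, 305 and 89.9 in +PBS-2w, and 746, 213, 158 and 264 in +PBS-4w. With hUC-MSCs it was at 116, 159 and 333 CPM in +MSC-1w, 127, 95.3 and 105 in +MSC-2w, and 47.7, 798, 401 and 167 in +MSC-4w. Every injured library but replicate 1 of +MSC-4w lay above the Intact libraries. The group means ran from 63.1 ± 26.9 (SD, n = 4) in Intact through 109 ± 16.3 in +MSC-2w (n = 3) to 345 ± 270 in +PBS-4w and 353 ± 331 in +MSC-4w (n = 4 each). In the order of the means, the ranges of neighbouring groups overlapped in 6 of 7 pairs, Intact and +MSC-2w being the pair that did not.

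RT1-Da followed the same libraries. It was at 2.89, 12.5, 22.4 and 17.3 CPM in Intact and at 74.0, 46.2 and 40.8 in sub-SCI. The later values were 35.4, 37.9 and 78.6 CPM in +PBS-1w, 60.6 and 17.1 in +PBS-2w, and 155, 50.9, 39.1 and 77.0 in +PBS-4w. With hUC-MSCs they were 29.6, 33.2 and 78.8 CPM in +MSC-1w, 20.4, 19.7 and 22 in +MSC-2w, and 13.0, 203, 95.8 and 48.5 in +MSC-4w. All libraries of sub-SCI and of both groups at 1 wpt, and of +PBS-4w, exceeded all Intact libraries, whereas those of +MSC-2w lay within the Intact range. RT1-Db1 was at 3.49, 6.0, 6.06 and 11.3 CPM in Intact and was not called in any comparison by the edgeR fit. DESeq2 on all libraries called it in +PBS-4w (2.03, adjusted p = 0.00298), as did edgeR without replicate 1 or without replicate 2 of +MSC-4w. It was at 19.7, 5.91 and 6.44 CPM in sub-SCI, at 47.4, 14.7, 11.5 and 37.9 in +PBS-4w and at 3.98, 46.4, 24.6 and 7.18 in +MSC-4w, and between 4.81 and 31.9 in the other injured groups. Of these, the 4 libraries of +PBS-4w all exceeded Intact.

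Against Intact, the comparisons below share the same 4 Intact libraries. A gene was called where edgeR's quasi-likelihood test gave an adjusted p under 0.01 (Benjamini-Hochberg over all genes tested) and an absolute log2 fold change above 1. None of the 8 genes was called in sub-SCI, where 16.6% of all genes tested were called higher. The same held in +PBS-1w (13.5% of all genes called higher), +PBS-2w (8.84%), +MSC-1w (7.87%) and +MSC-2w (5.6%). At an unadjusted p under 0.05 and with a positive sign the numbers were 6, 5, 3, 4 and 1 of 8 in these 5 comparisons, against 32.3%, 29.1%, 24.0%, 22.6% and 18% of all genes. DESeq2 on all libraries called 2, 1, 0, 0 and 0 of 8, against 17.4%, 14.6%, 9.81%, 8.94% and 6.25% of all genes called higher. In +PBS-4w, where 13.3% of all genes were called higher, 2 of 8 were called. Cd74 was upregulated by 2.45 on the log2 scale (SE 0.66, adjusted p = 0.00376) and RT1-Da by 2.54 (SE 0.67, adjusted p = 0.00325). In +MSC-4w 3 of 8 were called, against 7.25% of all genes called higher. These were Cd74 (2.48, SE 0.66, adjusted p = 0.00718), RT1-Da (2.71, SE 0.68, adjusted p = 0.00461) and Ciita (2.22, SE 0.59, adjusted p = 0.0071). In bulk tissue, more cells of a type and more RNA per cell cannot be told apart.

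The estimates themselves were on the side of injury almost throughout. All 8 log2 fold changes were positive in 6 of the 7 comparisons with Intact, and 6 of 8 were in +PBS-2w, where RT1-Ba (-0.41) and RT1-Bb (-0.06) were not. Of all genes tested, 47% to 52.9% had a positive estimate in these comparisons. The signs are not independent, as the comparisons share Intact and several of the 8 genes are correlated. The median over the 8 genes was 1.93 in sub-SCI, 1.63, 1.3 and 2.16 in the +PBS groups at 1, 2 and 4 wpt, and 1.96, 1.0 and 2.18 in the +MSC groups. Over all genes tested the medians lay between -0.03 and 0.05. In sub-SCI 5 of 8 genes had no overlap with the Intact range, all higher (32.9% of all genes tested did so), and the number was 3 in +PBS-1w (28.5%), 1 in +PBS-2w (31.1%), 4 in +PBS-4w (22.4%), 4 in +MSC-1w (24.5%), 1 in +MSC-2w (18.8%) and 0 in +MSC-4w (18.3%). In +PBS-2w, +MSC-2w and +MSC-4w the share of the 8 genes was thus below that of all genes.

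The calls at 4 wpt rested on few libraries. Without replicate 1 of +PBS-4w, or without replicate 1 or 2 of Intact, neither Cd74 nor RT1-Da was called in +PBS-4w. Over all 26 fits that left out 1 library, their log2 fold changes stayed between 1.8 and 2.69 for Cd74 and between 2.06 and 2.88 for RT1-Da, and the adjusted p reached 0.0204 and 0.0128. None of the 3 calls in +MSC-4w held without replicate 2 or without replicate 3 of that group, nor without replicate 1 or 2 of Intact. Cd74 also lost its call without Intact replicate 3 or 4, RT1-Da without Intact replicate 4 and Ciita without Intact replicate 3. The log2 fold changes in +MSC-4w then ranged from 1.7 to 2.85, 1.92 to 3.07 and 1.35 to 2.57 for Cd74, RT1-Da and Ciita. Without the replicate 1 libraries of all groups, Cd74, RT1-Da and Ciita were called in +MSC-4w (2.6, 2.76 and 2.27, adjusted p = 0.00123, 0.000988 and 0.00362). In +PBS-4w, RT1-Da was then called (1.68, adjusted p = 0.0097) and Cd74 was not (1.49, adjusted p = 0.0162). In +PBS-2w that setting leaves 1 library, and the estimates of Cd74, RT1-Da and RT1-Db1 were 0.27, -0.01 and -0.68.

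**Figure D2:**
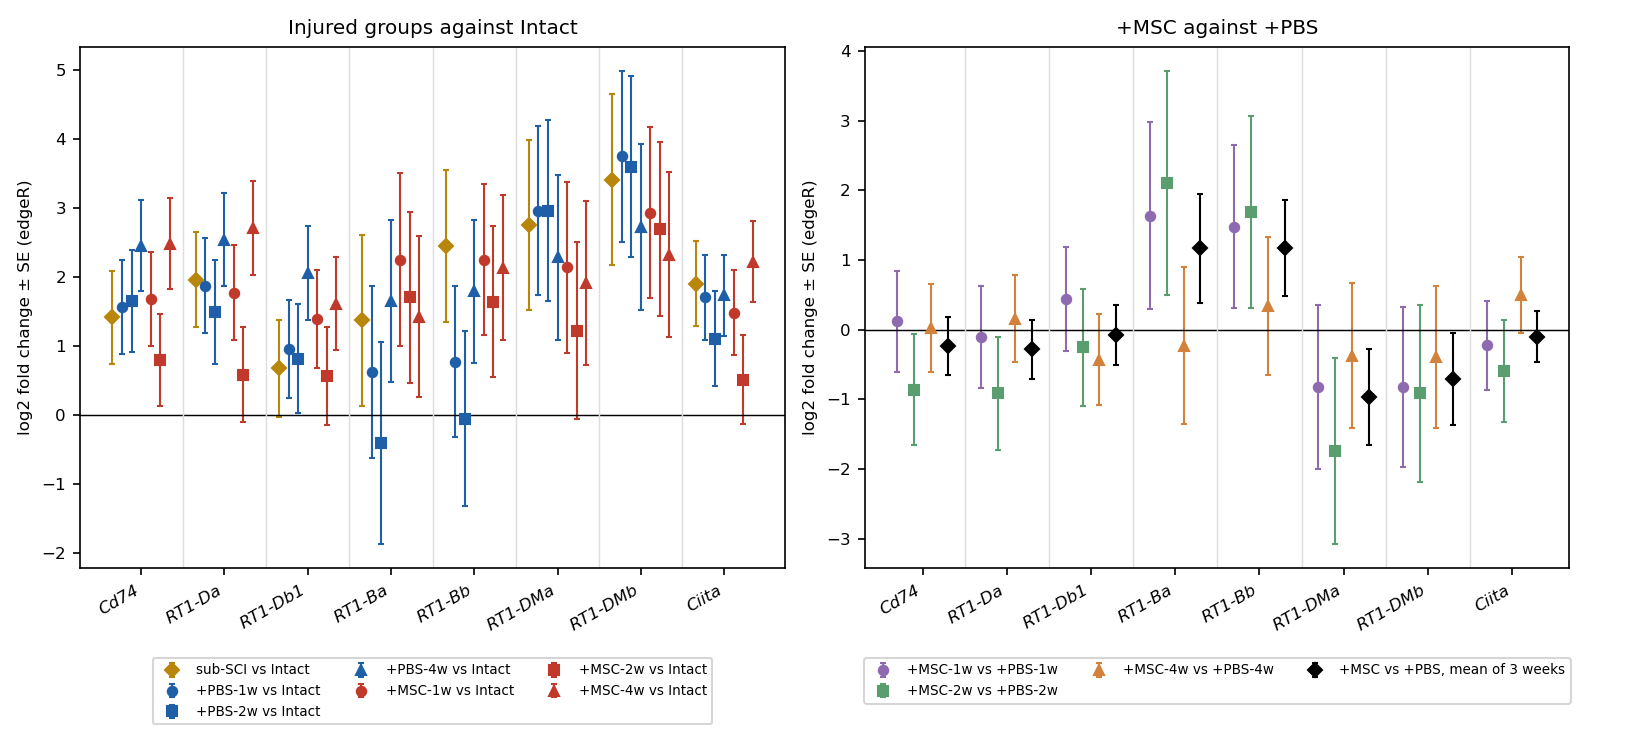
Log2 fold changes with their SE (edgeR) are plotted for the 8 genes, on the left for the 7 injured groups against Intact and on the right for +MSC against +PBS. On the left nearly all points lie above 0, and on the right every gene has points whose bars cross 0.

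The RT1-B chains had a larger spread between libraries over the whole series than the RT1-D chains, though not in every group. In +PBS-2w the higher library exceeded the lower 1.68-fold for RT1-Ba and 2.31-fold for RT1-Bb, against 3.55-fold for RT1-Da and 3.91-fold for RT1-Db1. RT1-Ba was at 0.218, 0.733, 2.82 and 10.7 CPM in Intact and at 3.81, 13.8 and 11.1 in sub-SCI. It was at 2.56, 3.73 and 10.7 CPM in +PBS-1w, 3.46 and 2.06 in +PBS-2w, and 8.87, 3.14, 2.82 and 31.4 in +PBS-4w. It was at 0.18, 2.11 and 50.5 CPM in +MSC-1w, 2.3, 17.2 and 16.4 in +MSC-2w, and 1.43, 18.3, 6.12 and 13.3 in +MSC-4w. Within +MSC-1w alone the libraries thus covered almost the whole span of the series. That span was 281-fold from lowest to highest library, against 32-fold for Cd74, 70.2-fold for RT1-Da and 13.6-fold for RT1-Db1. The library of lowest CPM, replicate 1 of +MSC-1w, held only 6 reads of RT1-Ba. RT1-Bb, its partner chain, went from 0.0546, 1.24, 7.54 and 7.11 CPM in Intact to 9.36, 29.9 and 27.0 in sub-SCI. It was at 3.52, 3.75 and 50.3 CPM in +MSC-1w and at 1.46, 16.5 and 19.7 in +MSC-2w. Replicate 1 was the lowest library of its group for both chains in 6 of 8 groups. The edgeR fit called neither chain in any comparison with Intact. RT1-Bb had its largest estimate in sub-SCI (2.45, SE 1.1, adjusted p = 0.059), where its 3 libraries lay above Intact, and RT1-Ba in +MSC-1w (2.25, SE 1.25, adjusted p = 0.172). With a term for replicate 1 in the model the same values were 2.73 (adjusted p = 0.0209) and 2.14 (adjusted p = 0.13), and without the replicate 1 libraries 2.46 (adjusted p = 0.0379) and 2.48 (adjusted p = 0.132). In +PBS-2w, with 1 library left, RT1-Ba and RT1-Bb then had -1.2 and -1.16.

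The RT1-DM chains divided each group by replicate number. RT1-DMa was at 1.15 CPM in replicate 1 of Intact and at 0.137, 0.278 and 0.038 in the others. In sub-SCI it was at 5.9 CPM in replicate 1 and at 0.725 and 1.05 in the others, and in +PBS-1w at 7.25, then 0.597 and 1.0. Replicate 1 exceeded the mean of the other libraries of its group from 3.89-fold (+MSC-4w) to 11.7-fold (+PBS-2w). RT1-DMb was at 0.928, 0.0458, 0.0463 and 0.228 CPM in Intact, at 7.21, 1.09 and 1.25 in sub-SCI and at 9.96, 1.45 and 0.6 in +PBS-1w. Its replicate 1 libraries stood from 3.54-fold (+MSC-4w) to 14.5-fold (+PBS-2w) above the mean of the others. What set the replicate 1 libraries apart was not tested.

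In the chosen model neither DM chain was called in any comparison with Intact. In alternative fits that set replicate 1 apart, RT1-DMb was called higher in most comparisons with Intact and RT1-DMa in fewer. Both genes show that split themselves, so these fits answer to a pattern seen in the same values. Outside replicate 1, the Intact libraries held only 3, 6 and 1 reads of RT1-DMa and 1, 1 and 6 of RT1-DMb. In the fit without a term for replicate 1, RT1-DMb had log2 fold changes against Intact of 2.32 to 3.75 and RT1-DMa of 1.22 to 2.96. None of these was called, and their SE ranged from 1.19 to 1.31. With a term for replicate 1, which was an alternative to the chosen model, RT1-DMb was upregulated in all 7 comparisons, by 2.63 to 3.25 on the log2 scale (adjusted p from 1.28e-05 to 0.000686), and RT1-DMa in 6 of 7. In the 6, RT1-DMa had 2.48 in sub-SCI, 2.51, 2.07 and 2.5 in +PBS at 1, 2 and 4 wpt, and 1.93 and 2.22 in +MSC at 1 and 4 wpt. The exception was +MSC-2w (0.81, adjusted p = 0.324). That model called 5.87% to 17.1% of all genes higher in these comparisons. Without the replicate 1 libraries, RT1-DMb was called in 6 of 7 comparisons, the exception being +PBS-2w with 1 library left (2.04, adjusted p = 0.101). RT1-DMa was then called in sub-SCI (2.61, adjusted p = 0.00833) and +PBS-4w (2.76, adjusted p = 0.0048), where 16.8% and 12.7% of all genes were called higher. The estimates of both DM chains were thus positive in all these fits, while the calls depended on how replicate 1 was treated.

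Ciita, the coactivator, was the least abundant of the 8 genes per kilobase. Its libraries were close in sub-SCI (1.27-fold from lowest to highest) and +PBS-4w (1.41-fold) and far apart in Intact (8.01-fold) and +MSC-4w (12.9-fold). It was at 0.218, 0.962, 1.34 and 1.75 CPM in Intact and at 4.13, 4.49 and 3.53 in sub-SCI. It was at 2.32, 3.39 and 4.88 CPM in +PBS-1w, 3.49 and 1.19 in +PBS-2w, and 3.95, 2.93, 3.4 and 4.13 in +PBS-4w. It was at 2.01, 2.66 and 4.45 CPM in +MSC-1w, 1.17, 1.89 and 1.59 in +MSC-2w, and 0.915, 11.8, 5.4 and 1.98 in +MSC-4w. Sub-SCI, +PBS-1w, +PBS-4w and +MSC-1w did not overlap with Intact, and +PBS-2w, +MSC-2w and +MSC-4w did. Its log2 fold change was 1.9 (SE 0.62, adjusted p = 0.0112) in sub-SCI and 1.73 (SE 0.59, adjusted p = 0.018) in +PBS-4w. With a term for replicate 1 both were called (2.05, adjusted p = 0.00545, and 1.84, adjusted p = 0.00993). Without the replicate 1 libraries neither was (1.61, adjusted p = 0.0189, and 1.36, adjusted p = 0.0333). Replicate 2 of +MSC-4w held the highest Ciita of the 26 libraries, and also the highest Cd74 and RT1-Da.

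From sub-SCI to +PBS-4w, which spans the vehicle course after the day of injection, none of the 8 genes was called in either direction, where 7.37% of all genes were. The median log2 fold change was 0.05 for the 8 genes and 0.06 for all genes tested. Cd74 had 1.04 (SE 0.69, adjusted p = 0.289), RT1-Db1 1.38 (SE 0.73, adjusted p = 0.175) and RT1-Bb -0.66 (SE 1.06, adjusted p = 0.692). Of 7 proteases and reductases that prepare peptides for class II, 4 were called lower over the same course, with a median of -1.01. Both myeloid transcription factors listed, Spi1 and Irf8, were called lower as well.

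The effect of the transplant was read from +MSC against +PBS. At 1 wpt none of the 8 genes was called (0.0111% of all genes tested were), at 2 wpt none (0% of all genes) and at 4 wpt none (0.495% of all genes). Averaged over the 3 weeks, which called 2.57% of all genes, again none was, and neither was any in the change of the effect from 1 to 4 wpt (0% of all genes). None of the 8 genes reached an unadjusted p under 0.05 in any of these 5 tests, and DESeq2 on all libraries called none either. The medians of the 8 log2 fold changes were 0.01, -0.73 and -0.1 at 1, 2 and 4 wpt. In each week, the libraries of both groups overlapped for every gene. Without the replicate 1 libraries none was called either, and the smallest adjusted p of the 8 genes was 0.386, 0.682 and 0.137 at 1, 2 and 4 wpt.

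The intervals of the averaged effect show how large a difference these libraries leave possible. For Cd74 it was -0.23 (95% interval -1.1 to 0.63), which spans 0.467 to 1.55 times the +PBS level. RT1-Da had -0.28 (-1.15 to 0.59), RT1-Db1 -0.08 (-0.98 to 0.82) and Ciita -0.1 (-0.87 to 0.67). Intervals of this width do not show that +MSC and +PBS were alike. The RT1-B chains had positive estimates, 1.17 (-0.45 to 2.8) for RT1-Ba and 1.17 (-0.25 to 2.59) for RT1-Bb, the latter with the smallest adjusted p of the 8 genes, 0.229. The DM chains had negative ones, -0.97 (-2.41 to 0.46) for RT1-DMa and -0.71 (-2.09 to 0.67) for RT1-DMb. Without the replicate 1 libraries the estimates were 0.5 for Cd74, 0.43 for RT1-Da, 0.58 for RT1-Db1, 0.41 for Ciita, 1.64 for RT1-Ba, 1.82 for RT1-Bb, -0.53 for RT1-DMa and 0.4 for RT1-DMb, with adjusted p from 0.084 to 0.498. The sign of 5 of the 8 estimates therefore changed with these libraries.

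At 2 wpt the estimates of Cd74 and RT1-Ba had opposite signs, neither of them called. Cd74 was at 305 and 89.9 CPM in +PBS-2w and between 95.3 and 127 in the 3 libraries of +MSC-2w. RT1-Ba was at 17.2 and 16.4 CPM in replicates 2 and 3 of +MSC-2w, above both +PBS-2w libraries, but at 2.3 in replicate 1, between them. The test found log2 fold changes of -0.86 (SE 0.8, adjusted p = 0.696) for Cd74 and 2.11 (SE 1.61, adjusted p = 0.605) for RT1-Ba.

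Across the 22 injured libraries the 8 genes are described in 3 sets, which were formed after the correlations had been seen. This is a description of log2 CPM in libraries that share groups, with no test. Among Cd74, RT1-Da, RT1-Db1 and Ciita the Pearson r of the 6 pairs was 0.71 to 0.96, and 0.82 to 0.99 after group means were removed. For Cd74 with RT1-Da the r was 0.96 (Spearman 0.95), and 0.94 without the 2 libraries farthest from the median of Cd74. RT1-Ba and RT1-Bb had an r of 0.86 (Spearman 0.93). RT1-DMa and RT1-DMb had an r of 0.88 (Spearman 0.81), which was 0.26 in the 15 injured libraries other than replicate 1, while RT1-Ba and RT1-Bb had 0.93 there. Between the first set and the RT1-B chains the r was 0.39 to 0.62, between the first set and the DM chains -0.12 to 0.14, and between the RT1-B and DM chains -0.58 to -0.38. In the 15 libraries other than replicate 1 these ranges were 0.33 to 0.5, -0.04 to 0.52 and -0.44 to 0.14. RT1-DMa then had a higher r with Ciita (0.52) than with RT1-DMb, so the DM chains formed no set of their own without replicate 1.

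**Figure D3:**
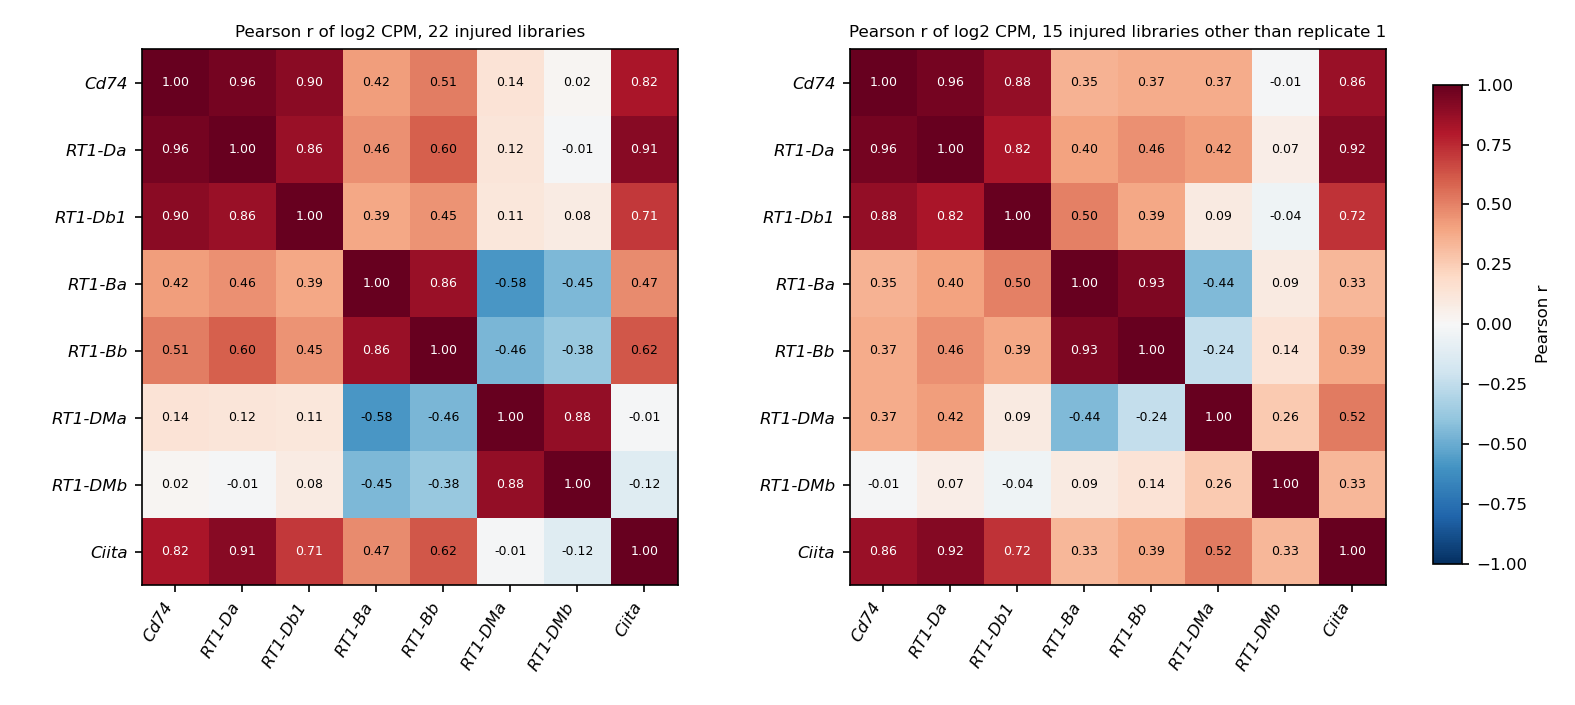
The matrices give the Pearson r of log2 CPM for each pair of genes, on the left over the 22 injured libraries and on the right over the 15 of them other than replicate 1. Cd74, RT1-Da, RT1-Db1 and Ciita keep an r of 0.72 to 0.96 on the right, whereas RT1-DMa with RT1-DMb goes from 0.88 to 0.26.

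The ratio to Cd74 within a library does not depend on library size. For every 100 Cd74 reads there were 11.6 to 35.4 RT1-Da reads over the 26 libraries (median 24.2), a 3.05-fold span. RT1-Db1 ranged from 3.95 to 14.4 and Ciita from 0.53 to 3.06 reads per 100 Cd74 reads, spans of 3.64-fold and 5.77-fold. The proportion of these 3 genes to the invariant chain thus varied less than Cd74 itself, which spanned 32-fold. RT1-Ba ranged from 0.156 (+MSC-1w replicate 1) to 18 (+MSC-2w replicate 2) and RT1-Bb from 0.219 (Intact replicate 1) to 23.4 (sub-SCI replicate 3). RT1-DMa ranged from 0.0466 to 6.83 and RT1-DMb from 0.0562 to 6.92, but outside replicate 1 neither exceeded 1.19 reads per 100 Cd74 reads.

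**Figure D4:**
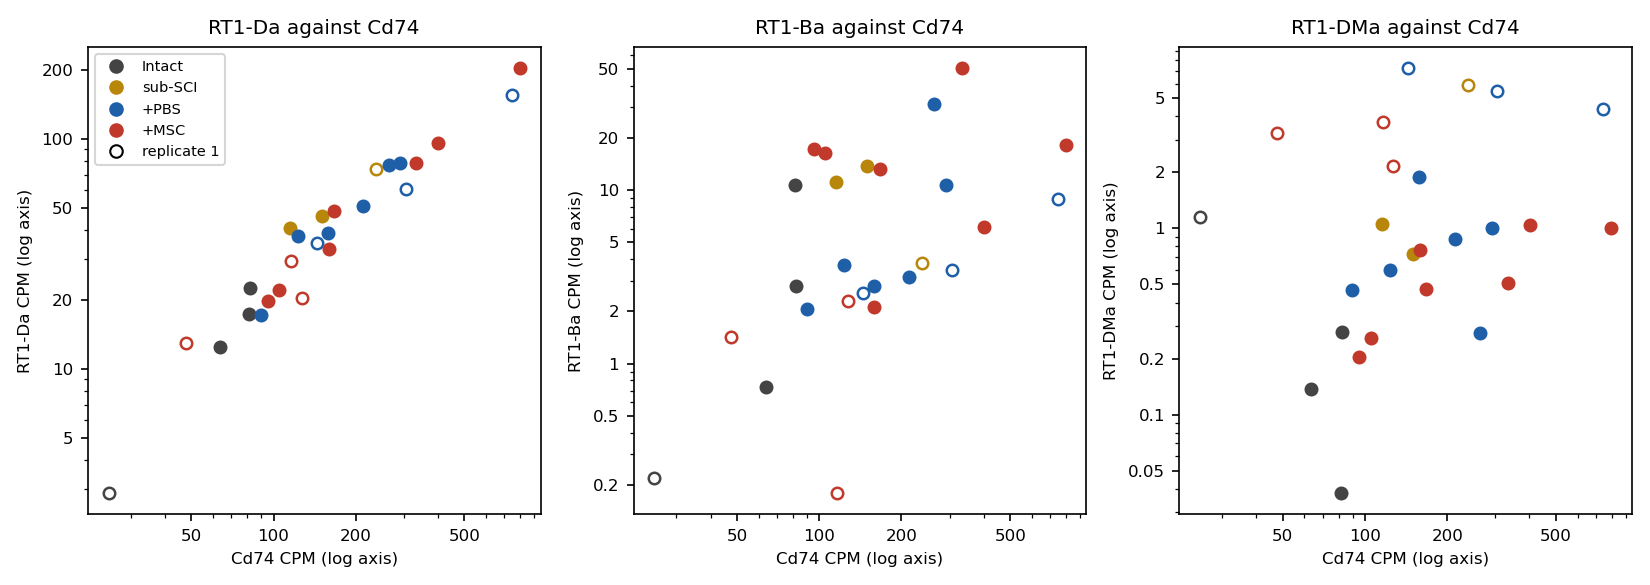
CPM of RT1-Da, RT1-Ba and RT1-DMa is plotted against CPM of Cd74 on log axes for the 26 libraries, with replicate 1 as open circles. Colours mark Intact, sub-SCI, +PBS and +MSC, and the weeks of a treatment share a colour. RT1-Da follows Cd74 along 1 line, RT1-Ba scatters, and the open circles of RT1-DMa lie above most other points.

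This spread between libraries of 1 group was large for the level of these genes. The biological coefficient of variation that edgeR estimated was 0.592 for Cd74, 0.603 for RT1-Da and 0.616 for RT1-Db1, against a median of 0.214 over all genes tested. Ciita had 0.535, RT1-DMb 0.959, RT1-Bb 0.957, RT1-DMa 0.985 and RT1-Ba 1.05. Among the 1000 genes nearest in abundance, 92.3% had a smaller coefficient than Ciita and 98.7% to 99.7% a smaller one than each of the 7 other genes. A gene with this spread needs a larger fold change to be called than most genes do.

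The genes whose log2 CPM was most like the mean of the 8 standardised profiles over the 22 injured libraries were, by r, RT1-DOa (0.84), Ccl22 (0.74), RF00191 (0.71), Chrdl2 (0.7), Cd2 (0.7), Pla2g2d (0.69), Mmp7 (0.68), Ccdc90b (0.68), Cst7 (0.68) and Ccl9 (0.66). The 8 genes themselves had r from 0.2 (RT1-DMb) to 0.95 (RT1-Da) with that mean. RT1-DOa, which came first, is the alpha chain of RT1-DO, the inhibitor of DM. Ccl22 is a chemokine made by dendritic cells and macrophages, and Cd2 an adhesion molecule of T cells. RF00191 is annotated as a snoRNA, and RT1-DOa, Ccl22, RF00191 and Chrdl2 lay below 3 CPM in all these libraries.

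Of the 4 other class II genes, 2 passed the filter. RT1-DOb, the beta chain of DO, was called in sub-SCI (log2 fold change 2.37, adjusted p = 0.00199) and in no other comparison with Intact, with 2.06 (adjusted p = 0.0107) in +MSC-4w. RT1-DOa was not called, with its largest value in +MSC-4w (2.49, adjusted p = 0.014). RT1-Db2 and RT1-Ha had group means of at most 0.208 and 0.064 CPM and were not tested.

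Genes of the proteins that hold Ciita at the promoter were measured beside it. Of 7 transcription factor genes, 6 passed the filter and Nfya, a subunit of the NF-Y complex that binds the Y box, was the only one called. It was upregulated in sub-SCI (1.67, adjusted p = 5.4e-07) and in +PBS at 1, 2 and 4 wpt (1.34, 1.04 and 1.12), and had 0.9, 0.61 and 0.58 in the +MSC groups. Rfx5, which binds the X box with its partners Rfxank and Rfxap, had -0.32 (adjusted p = 0.012) in sub-SCI, and Rfxank had 0.59 (adjusted p = 0.000729), under the fold limit. Nfyb, Nfyc and Creb1 had -0.37, 0.02 and 0.2 there, and Rfxap was at no more than 0.0701 CPM in any group mean. The median of the 6 genes lay between -0.02 and 0.11 in the 7 comparisons.

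Interferon gamma is the cytokine best known for inducing Ciita. Its own transcript, Ifng, had group means of at most 0.072 CPM, with 0 in all Intact libraries, and was not tested. Of 6 genes of its signalling that passed the filter, 5 were upregulated in sub-SCI and 2 to 4 in the other injured groups. The transcription factor Irf1 had 2.53 in sub-SCI (adjusted p = 3.25e-09) and 1.41 in both +MSC-2w and +MSC-4w, and the receptor chain Ifngr1 had 1.81 in sub-SCI and 1.31 to 1.99 in the others. These 2 genes were called in all 7 comparisons. Ifngr2, Jak2 and Socs1 had 1.44, 1.26 and 1.36 in sub-SCI, all called, and the kinase Jak1 had 0.11 and was not. In +MSC against +PBS over the 3 weeks none of the 6 was called, with a median of -0.22.

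The genes that prepare peptides for class II were called in every comparison with Intact. In the same fit none of the 8 class II genes was, whereas with a term for replicate 1 RT1-DMb was too. All 7 tested (Ctss, Ctsl, Ctsb, Ctsd, Ctsh, Lgmn and Ifi30) were upregulated in all 7 comparisons with Intact, and their median log2 fold change was 3.33 in sub-SCI and 1.91 to 2.76 in the other groups. Ifi30, a thiol reductase of the endosome, had 4.48 (SE 0.23, adjusted p = 5.33e-12) in sub-SCI, and the proteases Ctsb and Ctsd had 3.6 and 3.52. Their summed level was 1550 to 1820 CPM in Intact and 15300 to 18300 CPM in sub-SCI. The SE was 0.23 for Ifi30 and 0.68 for Cd74. Among the ligands that costimulate or inhibit T cells beside the class II molecule, Cd80, Cd86, Cd40 and Icoslg were called higher in all 7 comparisons, with 2.08, 3.37, 2.84 and 1.59 in sub-SCI. The inhibitory ligand Cd274 had 0.43 (adjusted p = 0.164) there, and Pdcd1lg2 was too low to test. Of 17 genes of the MHC class I pathway, 9 to 15 were called higher in the 7 comparisons, among them the immunoproteasome subunits Psmb9 (3.29) and Psmb8 (2.63) and the peptide transporter Tap2 (2.72) in sub-SCI.

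**Figure D5:**
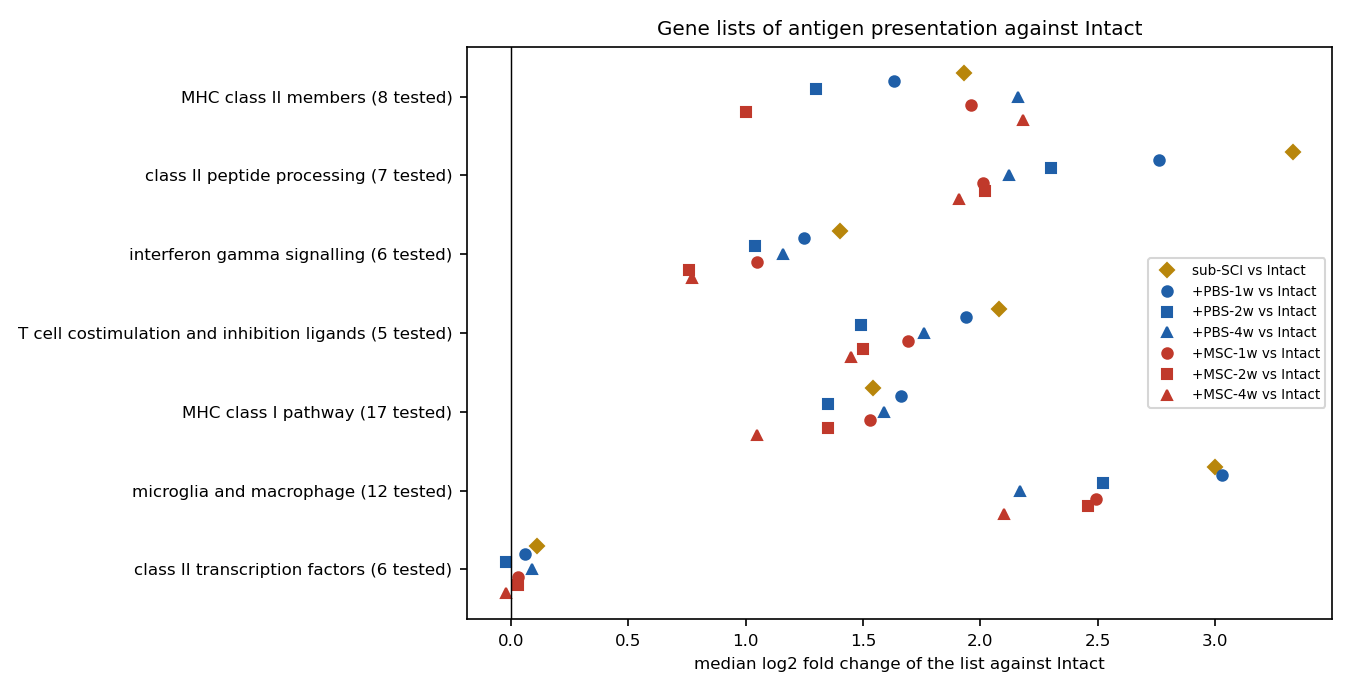
Median log2 fold changes against Intact are plotted for 7 gene lists, with 1 symbol per injured group and the number of genes tested in brackets. The class II genes lie between 1.0 and 2.18, peptide processing between 1.91 and 3.33, and the class II transcription factors near 0.

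The markers of the cells that can carry class II were measured in the same libraries. Microglia and macrophage markers summed to 437 to 656 CPM in Intact, to 3550 to 4520 in sub-SCI and to 1990 to 5500 in the other injured groups. Of the 12 markers, 9 to 12 were called higher in each comparison, with Cd68, a lysosomal protein of macrophages, at 7.41 in sub-SCI. Dendritic cell markers (7 genes) summed to 45.3 to 61.8 CPM in Intact and 47.6 to 83.3 CPM after injury. In sub-SCI 4 of them were called higher and 1 lower, with Itgax, Ccr7 and Batf3 at 4.71, 4.7 and 4.51. The one called lower was Flt3, a growth factor receptor, at -2.48 (adjusted p = 8.66e-06). Its mean level of 40.8 CPM in Intact and 7.32 CPM in sub-SCI made up most of the list's sum in Intact, so the summed level does not follow the other markers. B cell markers (5 genes) summed to 1.04 to 8.17 CPM in Intact and 0.678 to 6.43 CPM after injury. Of the 5, 1 was called higher in +PBS-1w and 0 were called in sub-SCI, where 1 of 5 estimates was positive. Ms4a1, a surface protein that marks B cells, had group means of at most 0.453 CPM. T cell markers (8 genes), whose cells read the class II complex, summed to 21.6 to 31.4 CPM in Intact and 98.1 to 423 CPM after injury. Cd2, a member of this list, was at no more than 5.61 CPM after injury, so other markers make up most of the sum. Markers of cord tissue were present, with 5 neuronal markers at 4690 to 5810 CPM and 4 oligodendrocyte markers at 45100 to 51100 CPM in Intact. After injury the neuronal sum was 185 to 947 CPM in sub-SCI and 526 to 4180 CPM in the later groups, and the oligodendrocyte sum was 9890 to 31400 CPM. In sub-SCI 5 of 5 neuronal and 3 of 4 oligodendrocyte markers were called lower. In +PBS-4w the numbers were also 5 of 5 and 3 of 4, and in +MSC-4w 0 of 5 and 2 of 4. The part of this shift in cell makeup in the class II levels was not tested.

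The levels of Cd74 and these sums were set against each other across the injured libraries. The Pearson r of Cd74 with the summed markers on the log2 scale was 0.05 for microglia and macrophages, 0.11 for dendritic cells, 0.15 for B cells and 0.19 for T cells. After group means were removed it was 0.34, 0.24, 0.39 and 0.42. A summed level mainly reflects the most abundant markers of its list, so these r do not describe each marker or cell type. Cd2, a T cell marker of low level, had an r of 0.7 with the mean of the class II profiles. It was named for that high r, and the r of the other T cell markers with that mean is not given here. With the summed MHC class I pathway the r of Cd74 was 0.42, and 0.81 after group means were removed. RT1-Da and Ciita had 0.84 and 0.77 with it on that scale, and RT1-DMa and RT1-DMb 0.06 and 0.09. These are descriptions over 22 libraries, in which the part of the cell types in the level of Cd74 was not tested.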

How the data were processed

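Reads were trimmed by the authors (Trim Galore 0.5.0), and those mapping to human GRCh38 (HISAT2 2.1.0) were discarded. The remaining reads were aligned to Rnor6, filtered for proper pairs (SAMtools 1.9) and assigned to genes (featureCounts 1.6.4). The deposited values are raw counts, without normalization, and the 26 libraries' own counts equal those of the joint table. Groups and replicate numbers came from the labels. The study's text gives the smaller number of repeats at 2 wpt to +MSC and the labels give it to +PBS, a difference that could not be settled here. The study calls its repeats biological replicates, without saying whether a library was 1 rat or a pool, and p-values measure the spread between libraries. Genes kept by filterByExpr were fitted in 1 model of the 8 groups (edgeR 4.0.16 in R 4.3.3, TMM, quasi-likelihood tests), with adjusted p under 0.01 and absolute log2 fold change above 1 as the call, after the study's thresholds. Log2 CPM used a prior count of 2. The statistics were tested on simulated data. DESeq2 1.42.0 and other settings were alternatives. The 8 genes, the lists and the tests were chosen with earlier results of these data known. All 8 genes were named, with the genes of the class II, transcription factor, interferon gamma and costimulation lists, at most 3 called genes of each other list by absolute log2 fold change in sub-SCI, and the 10 genes of highest likeness. Markers named beyond these were chosen after their values were seen. Some items of the marker and signalling lists are not reported here.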

Additional observations from a re-analysis of the deposited data

Results flagged for a closer look

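Within +MSC-4w, replicate 1 had an RT1-DMb level of 3.26 CPM, with the nearest library at 1.07 CPM, a gap of 0.836 of the group's whole range. It was the only value singled out among 24 sets of 1 gene in 1 group of 4 libraries, and chance alone singles out about 1 set in 20. Replicate 1 was also the highest library for RT1-DMb in every other group.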

How the results depend on the processing

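The number of the 8 genes called against Intact depended on the settings, and the cause was not tested. It was 0 in sub-SCI, +PBS-1w, +PBS-2w, +MSC-1w and +MSC-2w, 2 in +PBS-4w and 3 in +MSC-4w. At an adjusted p under 0.05 with no fold limit, the numbers were 3 in sub-SCI, 4 in +PBS-1w, 1 in +PBS-2w and 4 in +PBS-4w, against 30.5%, 26.7%, 19.7% and 28.6% of all genes. In +MSC-4w the number stayed at 3, against 17.7% of all genes. With a term for replicate 1 they were 3 in sub-SCI (17.1% of all genes called higher), 2 in +PBS-1w (14.2%), 2 in +PBS-2w (10.1%) and 5 in +PBS-4w (13.6%). In the +MSC groups they were then 2 at 1 wpt (8.7%), 1 at 2 wpt (5.87%) and 5 at 4 wpt (7.75%). With DESeq2 on all libraries they were 2, 1 and 4 in sub-SCI, +PBS-1w and +PBS-4w (17.4%, 14.6% and 14.0% of all genes called higher). In +MSC-4w that setting gave 3 (8.47%). With DESeq2 on the groups of a comparison they were 4 in sub-SCI, 4 in +PBS-1w, 1 in +PBS-2w and 4 in +PBS-4w. In +MSC-1w and +MSC-4w that setting gave 2 and 3. It called 8.8% to 18.3% of all genes higher in these comparisons. With edgeR on those groups the numbers were 1 in sub-SCI (17.6%), 1 in +PBS-4w (11.5%) and 0 in +MSC-4w (7.57%). Added after the data were seen, the fit without the replicate 1 libraries gave 2 in sub-SCI (16.8%), 3 in +PBS-4w (12.7%) and 4 in +MSC-4w (7.34%). It gave 1 each in +PBS-1w (13.3%), +MSC-1w (7.37%) and +MSC-2w (5.78%). The fit without the 2 libraries of highest Cd74 gave 2 in sub-SCI, 1 in +PBS-4w and 0 in +MSC-4w. Of 17893 genes tested, that fit called 3046, 2522 and 1138 higher in these comparisons. Leaving out 1 library gave 0 to 2 in sub-SCI, 0 to 1 in +PBS-1w, 0 to 4 in +PBS-4w and 0 to 3 in +MSC-4w. It gave 0 to 0 in +PBS-2w, +MSC-1w and +MSC-2w, in +PBS-4w against sub-SCI and in each +MSC against +PBS test. The shares of all genes in the fits without 1 library are not given here. Replicate numbers did not pair the samples throughout (correlations of deviations with Intact from -0.09 to 0.32). Not every library correlated best with its own number, although replicate 1 correlated best with Intact replicate 1 in 6 of 7 comparisons. In +MSC-4w against +PBS-4w, replicates 1, 2 and 4 correlated best with their own number (0.17, 0.23 and 0.19) and replicate 3 did not (0.02). In +MSC-1w against +PBS-1w, replicates 1 and 3 did so and replicate 2 did not. A replicate block called 0 of the 8 genes in these tests, against 0.478% and 0.0222% of all genes at 4 and 1 wpt. Against Intact, the replicate block called 5.92% to 16.6% of all genes higher in the 7 comparisons. With it the numbers of the 8 genes were 3 in sub-SCI, 2 in +PBS-1w, 2 in +PBS-2w and 4 in +PBS-4w. In the +MSC groups they were 2 in +MSC-1w, 1 in +MSC-2w and 3 in +MSC-4w. Those of +MSC-4w were RT1-Da and both DM chains, so Cd74 (2.45, adjusted p = 0.0137) and Ciita (2.17, adjusted p = 0.0115) lost their calls, and RT1-Bb gained one in sub-SCI (3.27, adjusted p = 0.0084). Of 3781 single-gene values under alternatives, 33 lost and 82 gained a call and 0 called values changed sign. Of 3515 values uncalled in both fits, 113 had another sign. The lowest libraries of RT1-Bb and the DM chains held 1 read, which limits the precision of their values.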

Other observations

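Each of the 3 sets of class II genes had its own closest genes over the 22 injured libraries, given here as values without a test. The mean of Cd74, RT1-Da, RT1-Db1 and Ciita was followed by RT1-DOa (r = 0.87), Ccl22 (0.8), Ptn (0.73), the lymphocyte activation marker Cd69 (0.73) and P2ry10 (0.72). The mean of the RT1-B chains was followed by LOC103690108 (0.81), RT1-CE7 (0.79), a class I gene, and RT1-DOb (0.77). The mean of the DM chains was followed by LOC108348072 (0.94), LOC108348139 (0.92), AC098547.1 (0.92), Grcc10 (0.91) and the ribosomal protein gene Rps27 (0.91), and these 5 genes, too, were highest in replicate 1 of all 8 groups. The 2 DO chains thus stood beside different sets, RT1-DOa beside the RT1-D chains and RT1-DOb beside the RT1-B chains.

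Among the genes of all lists used here, Jak2, a kinase of the interferon gamma receptor, was lowest in replicate 1 of all 8 groups, whereas RT1-DMa and RT1-DMb were highest there.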
